A study of Mus musculus with 13 samples.

Results

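The genes described here encode the nuclear subunits of the oxidative phosphorylation machinery of mitochondria, in mouse embryonic fibroblasts (MEFs) before reprogramming and on day 5 of reprogramming toward pluripotency. Members were every row of the deposited read count table whose symbol began with Ndufa, Ndufb, Ndufc, Ndufs, Ndufv, Uqcr, Cox4 to Cox8 or Atp5, together with Sdha, Sdhb, Sdhc, Sdhd and Cycs. This rule uses names alone and no measured value. It found 94 of the 24495 genes in the table, and 89 of them were among the 14607 genes with enough reads to be tested. By complex they were 36 genes of complex I, 4 of complex II, 8 of complex III, 20 of complex IV and 15 of complex V, with the single gene of somatic cytochrome c. The Nduf pattern also took in 8 assembly factors of complex I (Ndufaf1 to Ndufaf8), and the Atp5 pattern took in Atp5s and Atp5sl, which are not structural subunits of the enzyme. The table held no row for the subunits encoded in mitochondrial DNA, so they are not analysed here.

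Oxidative phosphorylation is the last stage of respiration. Complex I takes electrons from NADH and complex II takes them from succinate, ubiquinone carries them to complex III, cytochrome c carries them on to complex IV, and complex IV passes them to oxygen. Complexes I, III and IV pump protons across the inner membrane, and complex V lets them flow back to make ATP. Fibroblasts draw much of their ATP from this chain, while pluripotent stem cells rely more on glycolysis, and reprogramming is known to remodel both.

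All groups started from primary MEFs, strain V6.5 129XBI/6 as labelled, taken at embryonic day 12.5, that lack Tet2 (Tet2-/-) and carry the doxycycline-inducible OKSM factors (Oct4, Klf4, Sox2 and Myc) with the rtTA activator. TET2 oxidises 5-methylcytosine in DNA. The groups were Tet2-WT (3 libraries), from cells infected with a pMXs retrovirus that carries wild-type Tet2; Tet2-E (4 libraries), with a mutant Tet2 called stalling by the labels; pMXs (3 libraries), with the empty retrovirus; and Untreated (3 libraries), MEFs that were not reprogrammed. The first 3 groups were collected on reprogramming day 5. These cells grew on a layer of Mito-C-treated feeder MEFs with LIF, with 2 µg/mL doxycycline to switch on the factors, and with the MEK inhibitor PD0325901 at 1 µM and the GSK3 inhibitor CHIR99021 at 3 µM. Both MEFs and reprogramming cells were kept in 5% oxygen. The labels name no sort and no removal of feeders, so a day 5 library covers the whole culture, and the labels leave it unclear whether the Untreated MEFs carried the empty retrovirus. Retroviral Tet2 is driven from the vector and not from its own locus.

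Each library held between 14052646 and 26265382 counted reads. Tet2 itself had 1243, 1176 and 1233 CPM (counted reads scaled to a common library size) in Tet2-WT, 1356, 1403, 581 and 1299 CPM in Tet2-E, 39.1 to 58.8 CPM in pMXs and 37.8 to 48.3 CPM in Untreated, so all 7 libraries labelled with a Tet2 vector lay far above the other 6, and Tet2-E replicate 100 was the lowest of the 7. Tet2 levels cannot tell the Tet2-WT vector from the Tet2-E vector (log2 difference 0.07 ± 0.24, edgeR adjusted p = 0.96), nor pMXs from Untreated (0.08 ± 0.28, adjusted p = 0.82). Which part of Tet2 the reads covered in cells labelled Tet2-/- was not analysed here. Replicates carry the numbers 1, 2, 100 and 250, and the libraries numbered 100 and 250 differed together from those numbered 1 and 2. Cell type markers also differed between groups. The summed level of 10 fibroblast markers was 16103 to 17345 CPM in Tet2-WT and 19006 to 20262 CPM in Tet2-E. It was 20722 to 24206 CPM in pMXs and 38858 to 42528 CPM in Untreated, so it was much lower on day 5. Most of the sum was Col1a1, Col1a2 and Vim. In pMXs over Untreated 9 of the 10 fell and none rose, beside 35.0% of all genes in each direction. Vim averaged 7054 CPM in pMXs and 6281 CPM in Untreated. In Tet2-WT over pMXs 4 fell and 1, Twist2, rose, beside 6.52% and 6.01% of all genes. No listed marker of any type was at 0 in all libraries. The 8 macrophage markers present in the table summed to 213 to 309 CPM in Tet2-WT, 93.5 to 127 CPM in Tet2-E, 81.0 to 94.6 CPM in pMXs and 5.89 to 6.86 CPM in Untreated. Most of this sum was Laptm5, at 251 CPM in Tet2-WT, 96.1 CPM in Tet2-E, 80.0 CPM in pMXs and 0.263 CPM in Untreated, and the markers did not move as one in pMXs over Untreated, where 3 of 6 tested rose and 3 fell (median -0.41), Cd53 and Lyz2 among those that fell. In Tet2-WT over pMXs 4 of the 6 rose and none fell. The 5 endothelial markers summed to 71.2 to 87.9 CPM over the day 5 libraries and 7.41 to 10.5 CPM in Untreated, and most of that sum was Tek, at 73.9 CPM in pMXs and 3.34 CPM in Untreated. Of 4 endothelial markers tested 2 rose and 1, Esam, fell (median 0.08). Fewer cells of a type and less RNA per cell cannot be told apart in such libraries, and the part of cell makeup in the results below was not tested.

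The stretches just upstream of 6 of these genes are shown because the genes stand for the different behaviours described below: Uqcrfs1, Sdhd and Atp5g3 rose on day 5, Ndufa11 and Ndufa3 fell, and Sdha was the 1 gene called in a comparison of Tet2 vectors. Each is RefSeq sequence of GRCm38.p6, from 100 bases before to 30 bases after the annotated start, 5′ to 3′ on the gene's strand. Capitals mark matches, on either strand, to GCGC and TGCGC with 1 base of any kind between them (a site of NRF1), CCGGAAG (a site of ETS factors such as GABP) or AAGATGGC (a site of YY1), all regulators known for respiratory genes.
Uqcrfs1, chr13:30545287-30545416, minus strand: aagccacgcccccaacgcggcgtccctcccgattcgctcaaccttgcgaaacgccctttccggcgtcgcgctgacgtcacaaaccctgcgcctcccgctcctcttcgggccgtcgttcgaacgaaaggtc
Sdhd, chr9:50603820-50603949, minus strand: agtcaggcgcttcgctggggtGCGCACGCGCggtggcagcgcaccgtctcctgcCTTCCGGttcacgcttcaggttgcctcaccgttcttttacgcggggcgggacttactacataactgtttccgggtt
Atp5g3, chr2:73911297-73911426, minus strand: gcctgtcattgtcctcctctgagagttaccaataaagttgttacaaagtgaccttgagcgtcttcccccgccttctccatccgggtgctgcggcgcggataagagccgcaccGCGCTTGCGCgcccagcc
Sdha, chr13:74350211-74350340, minus strand: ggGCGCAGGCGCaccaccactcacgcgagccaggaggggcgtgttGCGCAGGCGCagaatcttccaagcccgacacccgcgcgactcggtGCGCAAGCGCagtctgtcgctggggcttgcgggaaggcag
Ndufa11, chr17:56717662-56717791, plus strand: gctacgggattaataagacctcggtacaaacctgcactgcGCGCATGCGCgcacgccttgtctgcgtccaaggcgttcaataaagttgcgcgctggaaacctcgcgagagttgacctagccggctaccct
Ndufa3, chr7:3617273-3617402, plus strand: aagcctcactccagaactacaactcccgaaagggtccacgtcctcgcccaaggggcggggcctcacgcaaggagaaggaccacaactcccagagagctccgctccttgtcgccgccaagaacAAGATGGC

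Of the 94 members, 75 had an entry in the RefSeq promoter table, searched from 250 bases before to 50 bases after the start. A gene counted as a match if any of its windows held the letters, and 5 members had several windows. The NRF1 letters were in 19 of the 75 members (25.3%), against 10.6% of the 11089 tested genes with an entry. The YY1 letters were in 10 (13.3%), against 4.88%, and the ETS letters were in 18 (24.0%), against 18.4%. Members with an entry were then split into those that rose, fell or did not pass between pMXs and Untreated. The NRF1 letters stood in 7 of 37, 1 of 4 and 10 of 31 members, the ETS letters in 7, 0 and 11 and the YY1 letters in 4, 1 and 5. Uqcrfs1, the structural subunit with the largest called rise, held none of the 3 motifs in the stretch shown, and Sdha, which did not pass that test, held 3 copies of the NRF1 letters. The YY1 match in Ndufa3 lies at the end of its stretch, just after the start, and the Ndufa11 match is a palindrome that both strands share.

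Levels were first set side by side per kilobase of transcript, to compare genes with each other. Atp5b, the catalytic beta subunit of ATP synthase, stood highest in each group, with 853 CPM per kilobase in Tet2-WT, 815 in Tet2-E, 789.9 in pMXs and 500.4 in Untreated. Cox4i1, a regulatory subunit of complex IV, followed with 509.8 CPM per kilobase in Tet2-WT, 499.9 in Tet2-E, 463 in pMXs and 361 in Untreated. Next stood Atp5a1, the alpha subunit of ATP synthase, with 417 CPM per kilobase in pMXs and 272 in Untreated, and Atp5g3, a gene for its membrane c ring, with 376 in pMXs and 231 in Untreated. These 4 genes held the top ranks in all 4 groups. At the other end, 5 members had almost no reads and were not tested. Ndufs5 had 1 read over the 13 libraries, and 33.7% of its 40-base stretches also occur in another gene. Whether its reads went uncounted or to that gene was not tested, so its level is uncertain. Cox7b2 and Cox8b had 1 read each and Cox8c had 3, while Cox6a2, the muscle form, had 41. Atp5l and Atp5g2 had only 690 and 317 reads in all, and 85.1% and 87.6% of their 40-base stretches recur in other genes, so reads of these 2 genes may have gone uncounted or to copies, and their levels are uncertain.

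Day 5 cells with the empty retrovirus were set against Untreated MEFs to describe how the chain differed on day 5. The OKSM factors, infection, feeder cells, LIF and the inhibitors all differ or may differ between these groups and cannot be told apart here. Of the 89 members tested, 44 rose (49.4%), 5 fell (5.62%) and 40 did not pass (edgeR quasi-likelihood test, Benjamini-Hochberg adjusted p under 0.05). Among all genes tested, 35.0% rose and 35.0% fell (70.1% changed). No test of the difference between these shares was run. The changes were modest: the members' median log2 fold change was 0.25, against -0.0013 for all genes, and the median absolute change was 0.28 for members and 0.57 for all genes. The changes ran from -0.59 to 1.33. Only Ndufaf4 and Uqcrfs1 passed the test with an absolute change of 1 or more, beside 28.8% of all genes (4200 of 14607). The summed level of the 84 subunit and cytochrome c genes was 7035 ± 164 CPM in pMXs and 5221 ± 316 CPM in Untreated (SD, n = 3 each), a ratio of 1.35. Scaling by library totals alone moved the median of all genes up by 0.17 and gave 64 members that rose and 2 that fell, so the direction of a member is relative to the rest of the transcriptome. With the replicate number as a block, 51 members rose and 2 fell.

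**Figure D1:**
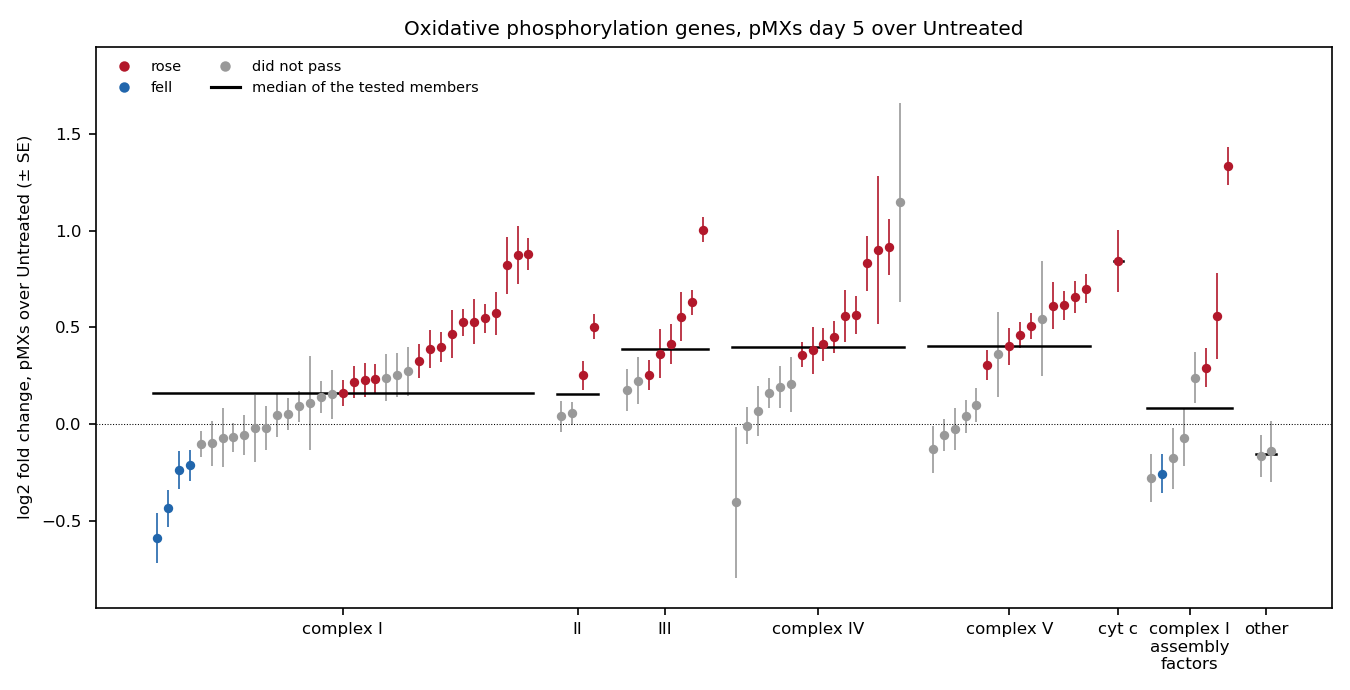
Log2 fold change (vertical axis, ± SE) of each of the 89 tested members in pMXs day 5 libraries over Untreated libraries (n = 3 each), ordered within each complex, with the median of each group of genes as a black bar. Complexes III, IV and V had medians of 0.39, 0.40 and 0.40, complex I had 0.16 with 4 members that fell, and Ndufaf4 stood highest at 1.33.

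The day 5 libraries of all 3 vectors were then set against Untreated without a test. In 37 members (41.6%) every one of the 10 day 5 libraries lay above all 3 Untreated libraries, against 31.1% of all genes tested, and in 4 members (4.49%) every day 5 library lay below, against 30.3%. The 4 were Ndufa11, Ndufa3, Ndufv3 and Ndufaf7, all of complex I or its assembly.

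Complex I had the smallest summed ratio of the 3 proton pumps. Of its 35 tested genes 15 rose (42.9%), 4 fell (11.4%) and 16 did not pass, with a median log2 fold change of 0.16. Among all genes tested, 35.0% went each way. Its summed level was 1508 ± 30.4 CPM in Tet2-WT, 1493 ± 48.7 CPM in Tet2-E (n = 4), 1440 ± 51.1 CPM in pMXs and 1253 ± 83.2 CPM in Untreated (SD, n = 3 in the others), a pMXs to Untreated ratio of 1.15. Of the 7 core subunits, which carry the flavin and the iron-sulphur clusters, 4 rose and none fell. Ndufs1, the largest iron-sulphur subunit, had 92.0, 92.4 and 87.8 CPM in pMXs, against 60.1, 60.1 and 69.0 CPM in Untreated (log2 fold change 0.53 ± 0.07, where ± on a fold change is its SE, adjusted p = 7.8e-06). Ndufs7 and Ndufv2, which carry further iron-sulphur clusters, rose by 0.46 and 0.40 on the same scale. Ndufv1, which binds NADH, did not pass, with 99.0, 94.4 and 95.8 CPM in pMXs and 99.3, 93.3 and 78.6 CPM in Untreated, and those ranges overlap.

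The 28 tested accessory subunits of complex I, which surround the core and help it to assemble, were split. Of them 11 rose (39.3%) and 4 fell (14.3%), beside 35.0% of all genes in each direction. Ndufb6, in the membrane arm, had 61.7, 61.9 and 61.5 CPM in pMXs, against 37.7, 31.8 and 31.1 CPM in Untreated, with no overlap (0.88 ± 0.08, adjusted p = 1.7e-07). Ndufa12 had 26.9, 29.9 and 20.1 CPM in pMXs and 15.6, 14.4 and 12.1 CPM in Untreated (0.88 ± 0.15, adjusted p = 8.7e-05). Ndufab1, the acyl carrier protein of mitochondria, was low, with 8.50 to 10.3 CPM in pMXs and 4.38 to 5.89 CPM in Untreated (0.82 ± 0.15, adjusted p = 0.00014). For Ndufb6 and Ndufa12, 35.2% and 27.8% of 40-base stretches are shared with other genes, and how the counting treated such reads is not given in the sources used here.

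The largest fall of any member was in Ndufa11, an accessory subunit of the membrane arm that lies where complex I meets complex III in respiratory supercomplexes. Its level was 15.6, 15.4 and 13.04 CPM in Tet2-WT, 15.2, 14.5, 13.1 and 14.7 CPM in Tet2-E, 15.7, 13.8 and 14.7 CPM in pMXs and 26.7, 21.7 and 18.0 CPM in Untreated. The day 5 libraries cluster tightly, while the Untreated libraries are spread, and number 100 is the lowest of them. The log2 fold change of Ndufa11 in pMXs over Untreated was -0.59 ± 0.13 (adjusted p = 0.00074), and it was -0.34 within numbers 100 and 250, where Untreated has only replicate 100. Ndufa3 had 22.3, 24.1 and 18.6 CPM in pMXs and 31.4, 28.4 and 28.5 CPM in Untreated (-0.44 ± 0.10, adjusted p = 0.00085), and it was the only 1 of the 5 falls called in all 24 settings tried. Ndufa2 and Ndufv3 fell by 0.24 and 0.21 on the log2 scale, but neither passed in the blocked fit, nor after Untreated replicate 1 was left out, nor in several other settings. Without that replicate the change of Ndufa2 was -0.12.

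The assembly factors of complex I were also split, with 3 of 8 that rose and 1 that fell, beside 35.0% of all genes in each direction. Ndufaf4, which acts in early steps of complex I assembly, showed the largest rise of all members. It had 55.1, 56.3 and 59.5 CPM in Tet2-WT, 57.9, 67.2, 56.2 and 51.5 CPM in Tet2-E, 46.7 to 50.03 CPM in pMXs and 18.4, 18.0 and 21.8 CPM in Untreated. Every day 5 library exceeded every Untreated library by more than 2-fold, and the pMXs to Untreated change was 1.33 ± 0.10 (adjusted p = 1.3e-08). Ndufaf6 and Ndufaf1 rose by 0.56 and 0.29, Ndufaf7, a methyltransferase, fell by 0.26 (adjusted p = 0.032, and 0.058 with the replicate block), and the other 4 did not pass. Outside the rule, 17 of 39 tested assembly factors of the chain rose and 5 fell, again beside 35.0% of all genes in each direction. Among these Acad9, a further complex I assembly factor, averaged 128 ± 5.75 CPM in pMXs and 49.3 ± 2.65 CPM in Untreated (n = 3 each; 1.37 ± 0.07, adjusted p = 2.4e-10), close in size to Ndufaf4.

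**Figure D2:**
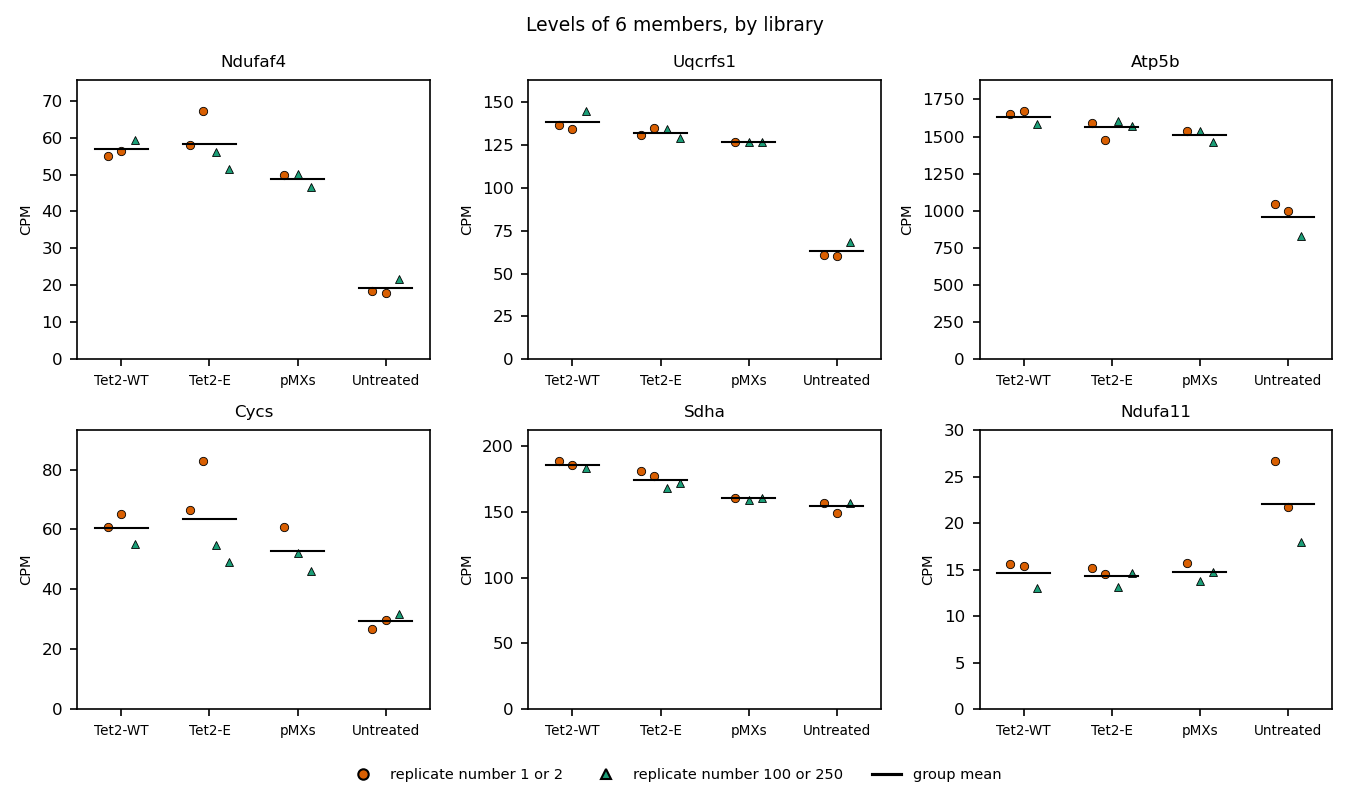
Level in CPM (vertical axis, from 0) of 6 members in each library, by group, with circles for replicate numbers 1 and 2, triangles for 100 and 250, and a bar at the group mean. Ndufaf4, Uqcrfs1, Atp5b and Cycs lie higher in all day 5 libraries than in Untreated, Ndufa11 lies lower, and Sdha is at 183 to 189 CPM in Tet2-WT, 159 to 161 CPM in pMXs and 149.5 to 157 CPM in Untreated.

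Complex II, succinate dehydrogenase, also belongs to the citric acid cycle and has no subunit encoded in mitochondria. Its membrane anchor Sdhd had 118, 115 and 106 CPM in pMXs, against 80.4, 77.5 and 81.5 CPM in Untreated (0.50 ± 0.06, adjusted p = 4.3e-06). The iron-sulphur subunit Sdhb rose by 0.25 ± 0.08 (adjusted p = 0.0077), with 40.2 to 44.4 CPM in pMXs and 32.9 to 36.7 CPM in Untreated. The flavoprotein Sdha and the other anchor Sdhc did not pass, at 0.05 ± 0.06 and 0.04 ± 0.08. The 2 anchors thus had different changes in the same libraries. Sdhc had 71.4, 72.4 and 75.9 CPM in pMXs and 77.7, 70.4 and 65.5 CPM in Untreated, ranges that overlap, while those of Sdhd do not. In the citric acid cycle around it, 11 of 14 tested genes rose and 2 fell, beside 35.0% of all genes in each direction. Idh3a, of isocitrate dehydrogenase, rose by 1.13 ± 0.10 (143 ± 16.3 CPM in pMXs, 65.2 ± 4.89 CPM in Untreated), and Sucla2, of succinyl-CoA synthetase, fell by 0.32 ± 0.09.

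In complex III, 6 of 8 genes rose and none fell, with a median of 0.39, beside 35.0% of all genes in each direction. Uqcrfs1, the Rieske iron-sulphur protein, had 137, 134 and 145 CPM in Tet2-WT, 131, 135, 134 and 129 CPM in Tet2-E, 127, 127 and 127 CPM in pMXs and 60.9, 60.0 and 68.7 CPM in Untreated. The replicates of each group were close to each other, and the pMXs to Untreated change was 1.01 ± 0.07 (adjusted p = 3e-09). The core protein Uqcrc2 had 86.6, 82.6 and 81.0 CPM in pMXs and 54.0, 50.8 and 57.0 CPM in Untreated (0.63 ± 0.07, adjusted p = 5.5e-07), whereas its partner Uqcrc1 rose by 0.25 ± 0.08. Uqcr11, a small subunit, rose by 0.55 ± 0.13. Uqcrb and Uqcrq, which lie against cytochrome b, had changes of 0.17 and 0.22 that did not pass. Cyc1, cytochrome c1 of the same complex, falls outside the symbol rule, and it rose by 0.77 ± 0.10, with 131 ± 6.78 CPM in pMXs and 76.3 ± 11.7 CPM in Untreated (adjusted p = 3.4e-06).

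Cycs, the mobile carrier between complexes III and IV and a trigger of apoptosis once released, had 60.9, 65.0 and 55.1 CPM in Tet2-WT, 66.6, 82.9, 54.7 and 49.3 CPM in Tet2-E, 60.7, 52.1 and 46.0 CPM in pMXs and 26.9, 29.9 and 31.8 CPM in Untreated. All 10 day 5 libraries lay above the Untreated ones (0.84 ± 0.16 for pMXs over Untreated, adjusted p = 0.00028). In each day 5 group its libraries numbered 1 and 2 were higher than those numbered 100 and 250. This held for 5 of the 89 members (5.62%) and for 10.0% of all genes. Other genes share 30.1% of its 40-base stretches. Exons of several members also overlap a gene on the opposite strand, over 41.7% of the length in Cox5a, 39.0% in Ndufb6, 26.6% in Uqcrc2, 20.1% in Cox4i1 and 12.8% in Ndufa11, and which strand was counted is not given in the sources used here.

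In complex IV, 9 of 16 tested genes rose (56.25%) and none fell, with a median of 0.40, beside 35.0% of all genes in each direction. Among its ubiquitous subunits Cox7c rose by 0.83 ± 0.14 (45.3, 37.9 and 35.9 CPM in pMXs, 26.4, 21.2 and 19.1 CPM in Untreated). Cox5a rose by 0.56 ± 0.10, Cox5b by 0.56 ± 0.14, Cox7a2 by 0.45 ± 0.08, Cox8a by 0.41 ± 0.09 and Cox7b by 0.38 ± 0.12. Cox4i1, the most abundant per length, had 347 to 360.0 CPM in pMXs and 266 to 283 CPM in Untreated (0.36 ± 0.07, adjusted p = 0.00018). Cox6a1, Cox6b1 and Cox6c did not pass, at -0.01, 0.19 and 0.06. Cox7a2l, which links complexes III and IV in supercomplexes, also did not pass, at 0.16 ± 0.08. Among these genes 53.9% of the 40-base stretches of Cox7c and 39.4% of those of Cox5a recur in other genes.

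Several complex IV subunits have alternative forms that other tissues or low oxygen favour, and these did not follow one pattern. Cox6b2, known as the testis form of Cox6b, had 34.9, 40.1 and 43.8 CPM in Tet2-WT, 35.3, 34.9, 44.5 and 50.3 CPM in Tet2-E, 40.3, 50.6 and 54.4 CPM in pMXs and 27.6, 25.9 and 23.6 CPM in Untreated. It was the member of complex IV with the largest change that passed (0.91 ± 0.14, adjusted p = 4.4e-05), and the change was 0.59 within numbers 1 and 2, where pMXs has only replicate 2, and 1.15 within 100 and 250, where Untreated has only replicate 100. Per length it made up 36.6% to 48.9% of Cox6b in pMXs and 31.4% to 31.5% in Untreated. The 6 testis germ cell markers summed to 0.137 to 0.507 CPM in pMXs and 1.01 to 2.58 CPM in Untreated. Only 1 of the 6 had enough reads to be tested, and their relation to Cox6b2 was not tested. Cox7a1, the heart and muscle form of Cox7a, stayed under 2.4 CPM in every library. Its call as higher in pMXs (0.90 ± 0.38, adjusted p = 0.048) was lost in 13 of the 24 settings, among them the 1 without pMXs replicate 100, where the change was 0.38. The skeletal muscle markers summed to 1.85 to 6.91 CPM in pMXs and 6.75 to 14.8 CPM in Untreated.

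Ndufa4l2, a form of the complex IV subunit Ndufa4 that low oxygen induces, followed the replicate numbers more than the groups. It had 32.0, 39.5 and 77.4 CPM in Tet2-WT, 31.7, 19.4, 65.7 and 64.6 CPM in Tet2-E, 44.3, 91.6 and 64.1 CPM in pMXs and 22.9, 19.5 and 48.4 CPM in Untreated. In all 4 groups the libraries numbered 100 or 250 lay above those numbered 1 or 2, which held for 2 of the 89 members (Ndufa4l2 and Ndufa6) and for 3.87% of all genes. Without regard to number, its change of 1.15 ± 0.51 in pMXs over Untreated did not pass (adjusted p = 0.065). With the replicate number as a block the change was 0.87 and passed (adjusted p = 0.0006), and it was 1.06 within numbers 1 and 2 and 0.70 within 100 and 250 (adjusted p = 0.019 and 0.076). Each of these splits has 1 group with a single library, pMXs replicate 2 or Untreated replicate 100, which is assumed to vary like the other libraries. Ndufa4 itself had 46.6 to 58.3 CPM in pMXs and 37.2 to 51.1 CPM in Untreated and did not pass. Cox4i2, the form of Cox4 found in lung and induced by low oxygen, stayed under 4 CPM in every library and made up at most 1.33% of Cox4 per length. Overall its change did not pass (-0.40 ± 0.39). Within the same splits it was -0.96 for numbers 1 and 2 (edgeR adjusted p = 0.015) and 0.28 for 100 and 250 (adjusted p = 0.44).

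**Figure D3:**
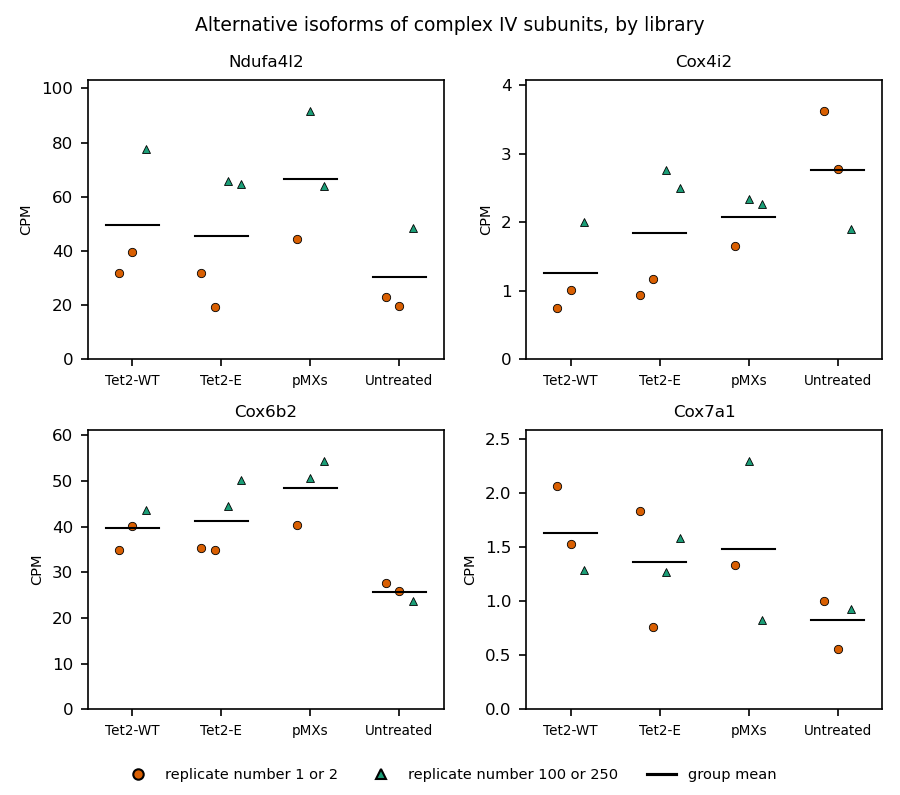
Level in CPM (vertical axis, from 0) of the alternative complex IV forms Ndufa4l2, Cox4i2, Cox6b2 and Cox7a1 in each library, with circles for replicate numbers 1 and 2, triangles for 100 and 250, and a bar at the group mean. For Ndufa4l2 the triangles, at 48.4 to 91.6 CPM, lie above the circles, at 19.4 to 44.3 CPM, and Cox6b2 is higher in all day 5 libraries than in Untreated.

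Around these oxygen-responsive forms, 7 of 16 tested genes known to be induced by hypoxia rose and 6 fell in pMXs over Untreated, beside 35.0% of all genes that rose and 35.0% that fell. Egln3, a prolyl hydroxylase that marks HIF proteins, rose by 2.47 ± 0.16, and Adm, the hormone adrenomedullin, fell by 2.30 ± 0.14. All cells were labelled as grown in the same oxygen.

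The 15 genes of complex V summed to 3676 ± 21.9 CPM in Tet2-WT, 3533 ± 145 CPM in Tet2-E (n = 4), 3505 ± 54.4 CPM in pMXs and 2359 ± 197 CPM in Untreated (SD, n = 3 in the others), a pMXs to Untreated ratio of 1.49. The ratio was 1.39 in complex III, 1.31 in complex IV, 1.15 in complex I and 1.14 in complex II. Much of the complex V sum was Atp5b and Atp5a1, and without them its ratio was 1.32, under that of complex III. Of the 15 genes 8 rose (53.3%), none fell and 7 did not pass, beside 35.0% of all genes in each direction. In the catalytic head and its stalk 4 of 5 genes rose. Atp5b had 1536, 1538 and 1466 CPM in pMXs and 1045, 1001 and 829.8 CPM in Untreated (0.66 ± 0.08, adjusted p = 3.9e-06). Atp5a1 rose by 0.61 ± 0.07, Atp5c1, the rotating gamma subunit, by 0.51 ± 0.07 and Atp5d by 0.40 ± 0.10. Atp5e, a small subunit of the central stalk, did not pass, with 49.4 to 61.0 CPM in pMXs and 49.3 to 60.4 CPM in Untreated.

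The 3 genes of the c ring encode the same mature protein. Atp5g3, the most abundant of them, had 288, 254 and 274 CPM in pMXs and 184, 163 and 156 CPM in Untreated (0.70 ± 0.08, adjusted p = 8.8e-07). Atp5g1 rose by 0.61 ± 0.12, and Atp5g2 was at 0.54 ± 0.30 on very few reads and did not pass. In the peripheral stalk Atp5f1 and Atp5o rose by 0.46 and 0.30, while Atp5j and Atp5h did not pass. The small membrane subunits Atp5j2, Atp5k and Atp5l did not pass either, with changes of -0.13 ± 0.12, 0.04 ± 0.09 and 0.36 ± 0.22. Atp5s and Atp5sl, the 2 other matches of the symbol rule, were at -0.14 ± 0.16 and -0.17 ± 0.11 and did not pass.

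**Figure D4:**
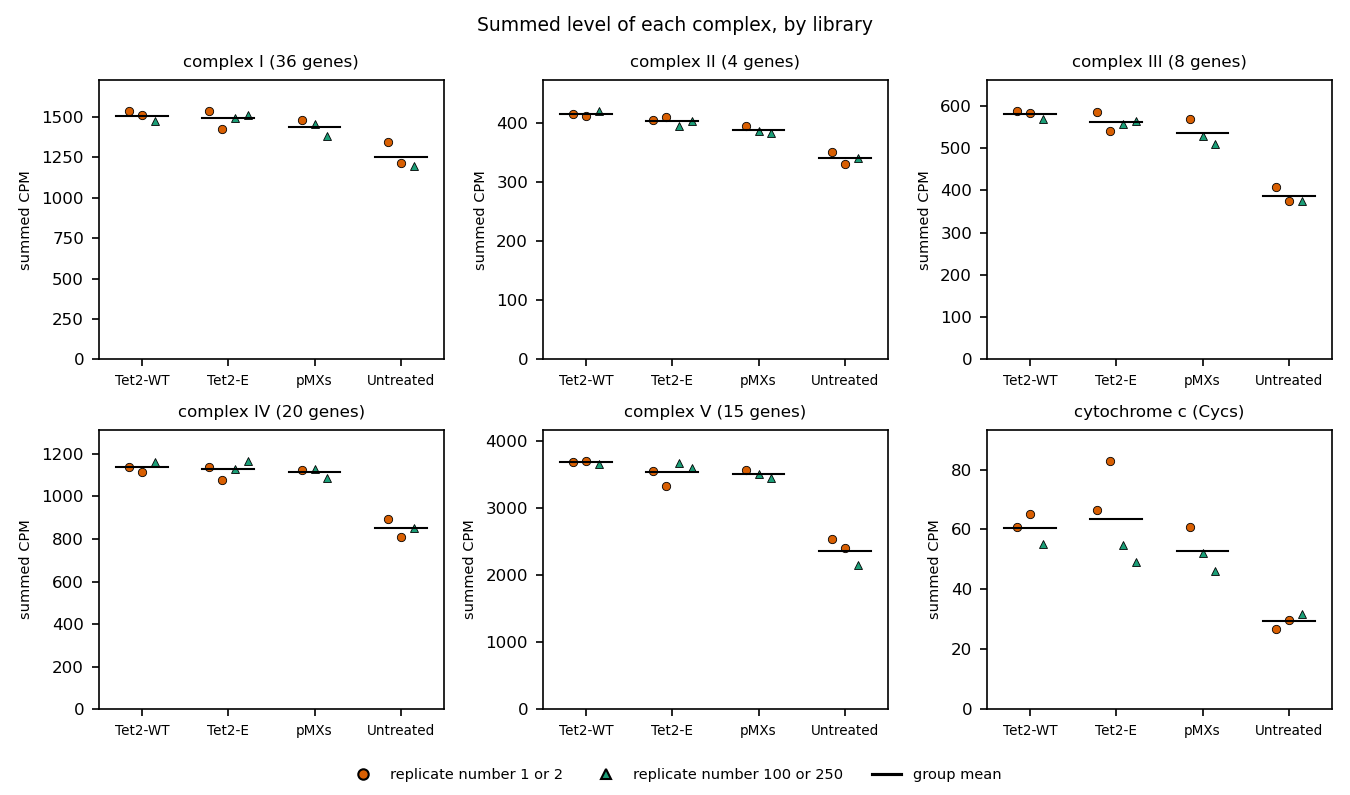
Summed level in CPM (vertical axis, from 0) of the genes of each complex and of Cycs in each library, with circles for replicate numbers 1 and 2, triangles for 100 and 250, and a bar at the group mean. Complex V sums lie between 3326 and 3696 CPM in day 5 libraries and between 2147 and 2535 CPM in Untreated, while complex I shows a pMXs to Untreated ratio of 1.15.

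Genes that feed, build or control the chain were described from fixed lists. Their counts stand beside 35.0% of all genes that rose and 35.0% that fell in pMXs over Untreated, and no difference in shares was tested. Of 78 genes of the mitochondrial ribosome, which makes the subunits encoded in mitochondria, 48 rose and 4 fell in pMXs over Untreated, with a median log2 fold change of 0.31. Mrpl15 rose by 1.09 ± 0.08, and Mrps6 fell by 0.76 ± 0.14. Of 20 regulators of respiratory genes 12 rose and 1 fell. Ppargc1b, a coactivator of respiratory genes, had 6.53 ± 1.54 CPM in pMXs and 0.52 ± 0.05 CPM in Untreated (3.61 ± 0.23), and the nuclear receptor Esrrg fell by 3.65 ± 0.40 at levels under 4 CPM. Esrrb, a nuclear receptor that is also a pluripotency factor, averaged 1.12 ± 0.04 CPM in pMXs and 0.08 ± 0.07 CPM in Untreated, the second on a few reads (3.75 ± 0.49).

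At the step from pyruvate into the cycle 8 of 15 genes rose and 6 fell, beside 35.0% of all genes in each direction. Pcx, pyruvate carboxylase, averaged 217 ± 14.7 CPM in pMXs and 65.3 ± 1.06 CPM in Untreated (1.74 ± 0.08). Of the kinases that shut off pyruvate dehydrogenase, Pdk1 rose by 1.42 ± 0.07 and Pdk4 fell by 3.33 ± 0.15, with 4.51 ± 0.96 CPM in pMXs and 44.8 ± 6.44 CPM in Untreated. Pdp1, the phosphatase that acts against them, fell by 1.89 ± 0.22. Among other donors and carriers 8 of 15 tested genes rose and 2 fell, beside the same shares of all genes. Slc25a5, which exchanges ADP for ATP across the inner membrane, rose by 1.10 ± 0.07 (367 ± 25.4 CPM in pMXs, 171 ± 7.83 CPM in Untreated).

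The 3 remaining comparisons asked whether Tet2 or its catalytic state altered these genes on day 5. They share libraries: pMXs serves as the baseline of both vectors, and Tet2-WT and Tet2-E also enter the third. In Tet2-WT over pMXs, 1 of the 89 members rose (Sdha) and none fell, while 6.01% of all genes rose and 6.52% fell (12.5% changed). At an unadjusted p under 0.05 there were 6 members (6.74%), against 25.2% of all genes, and DESeq2 also called Sdha alone. The members' changes ran from -0.75 to 0.30 with a median of 0.060, against -0.0037 for all genes. For 84 of the 89, the interval of the change ± 2 SE lay within 1.5-fold in either direction, so larger effects of Tet2-WT on those genes were not seen within that error.

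Sdha, the catalytic flavoprotein of complex II, had 189, 185 and 183 CPM in Tet2-WT, 181, 177, 168 and 172 CPM in Tet2-E, 161, 159 and 161 CPM in pMXs and 157, 149.5 and 157 CPM in Untreated. The 4 groups do not overlap, and the levels are ordered Tet2-WT, Tet2-E, pMXs, Untreated. Sdha is described because these same values gave its call, so the order is no separate support. Of all genes tested, 17.7% had all Tet2-WT libraries above pMXs, and 31.1% had all day 5 libraries above Untreated. How many genes had all 4 groups in this order was not counted. The difference of Tet2-WT from pMXs was 0.21 ± 0.06 on the log2 scale (edgeR, adjusted p = 0.024), that of Tet2-E from pMXs was 0.12 ± 0.05 (adjusted p = 0.50) and that of Tet2-WT from Tet2-E was 0.09 ± 0.05 (adjusted p = 0.50). The size was steady, at 0.19 to 0.22 in all settings, but the call was not. With the set of numbers (1 and 2, or 100 and 250) as a term the adjusted p was 0.029, and with the replicate number as a block it was 0.062. Within numbers 1 and 2, where pMXs has 1 library, and within 100 and 250, where Tet2-WT has 1, it was 0.15 and 0.19, and it was 0.057 to 0.097 when any 1 of pMXs replicates 2, 100 and 250 or Tet2-WT replicates 1 and 2 was left out.

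The 4 genes of complex II, of which Sdha is the most abundant, summed to 413 to 421 CPM in Tet2-WT, 395.6 to 411 CPM in Tet2-E, 384 to 395.3 CPM in pMXs and 330.4 to 350.5 CPM in Untreated. These ranges do not overlap, but those of Tet2-E and pMXs only just so. Sdha is part of each sum, so the order of the sums is no separate support either. Sdhc did not follow this order, with 66.8, 66.4 and 76.1 CPM in Tet2-WT and 71.4, 72.4 and 75.9 CPM in pMXs. Sdhb had 41.1 to 44.6 CPM in Tet2-WT and 40.2 to 44.4 CPM in pMXs. Sdhd had 114.6 to 119.8 CPM in Tet2-WT and 106.2 to 118.4 CPM in pMXs, so for all 3 genes these ranges overlap. The sums of complex V were 3653 to 3696 CPM in Tet2-WT, 3326 to 3658 CPM in Tet2-E and 3449 to 3558 CPM in pMXs, with Tet2-WT above all pMXs libraries. Without Atp5b and Atp5a1 these sums overlapped, at 989.3 to 1008.8 CPM in Tet2-WT and 938.0 to 1008.7 CPM in pMXs. In complex III the sums were 568.4 to 588 CPM in Tet2-WT and 509.6 to 568.1 CPM in pMXs, which only just do not overlap, and in complexes I and IV the ranges of these groups overlapped. The Tet2-WT to pMXs ratios of the 5 complexes were between 1.02 and 1.08.

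For single members, all 3 Tet2-WT libraries lay above all 3 pMXs libraries in 15 genes (16.9%), against 17.7% of all genes, and below them in 4 (4.49%), against 16.9%. Other members with small differences were Ndufb10 (0.18 ± 0.07, adjusted p = 0.093), Uqcrc2 (0.16 ± 0.07, adjusted p = 0.13), Ndufaf4 (0.22 ± 0.09, adjusted p = 0.16) and Ndufa3 (0.23 ± 0.10, adjusted p = 0.16), none of which passed. The largest absolute change, -0.75 ± 0.42 in Cox4i2, belongs to a gene under 4 CPM whose level moved with the replicate numbers. In each related list, of 14 to 78 tested genes, at most 2 rose and at most 2 fell, beside 6.01% and 6.52% of all genes. Of 15 pyruvate entry genes 1 rose and 2 fell, and of 78 mitochondrial ribosome genes 2 rose and none fell. Besides Acad9 and Pcx, the genes Coa5, Pdhb, Epas1, Egln3, Sqrdl, Mrps6 and Mrpl36 rose, and Ldhb, Esrrb and P4ha2 fell. Acad9 rose by 0.36 ± 0.07 in Tet2-WT over pMXs (164 ± 11.7 CPM in Tet2-WT, 128 ± 5.75 CPM in pMXs, adjusted p = 0.003), and Pcx fell by 0.49 ± 0.08 (155 ± 5.25 CPM in Tet2-WT, 217 ± 14.7 CPM in pMXs, adjusted p = 0.00053), 1 gene of complex I assembly and 1 of pyruvate entry.

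In Tet2-E over pMXs no member rose or fell, and of all genes 0.0205% rose and 0.0274% fell (0.0479% changed). At an unadjusted p under 0.05 edgeR had 3 members (Ndufaf4, Ndufa3 and Sdha), 3.37% against 9.33% of all genes, and DESeq2 also called none after adjustment. The number of genes called over the whole table moved with the setting: 3 rose and 4 fell in the fit reported, 68 and 73 with DESeq2, 67 and 85 with the set of numbers as a term, and 29 and 21 without Tet2-E replicate 100. No member was among them in any of the 24 settings. The median change of members was 0.055, and 83 of 89 intervals lay within 1.5-fold. Ndufaf4 was at 0.25 ± 0.09 (adjusted p = 0.38) and Cycs at 0.25 ± 0.15 (adjusted p = 0.63). All 4 Tet2-E libraries lay above all pMXs libraries in 7 members (7.87%), against 5.65% of all genes, and in no member did they all lie below, against 4.50%.

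In Tet2-WT over Tet2-E no member rose or fell by edgeR or by DESeq2, and none reached an unadjusted p under 0.05 in edgeR, against 15.6% of all genes. Of all genes 2.43% rose and 2.19% fell (4.62% changed). The median change of members was 0.021, and 85 of 89 intervals lay within 1.5-fold. The Tet2-WT libraries lay above all Tet2-E libraries in Sdha and Ndufaf1 and below all of them in Ndufa13 and Atp5h, 2.25% of members each way, against 7.48% and 7.54% of all genes.

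**Figure D5:**
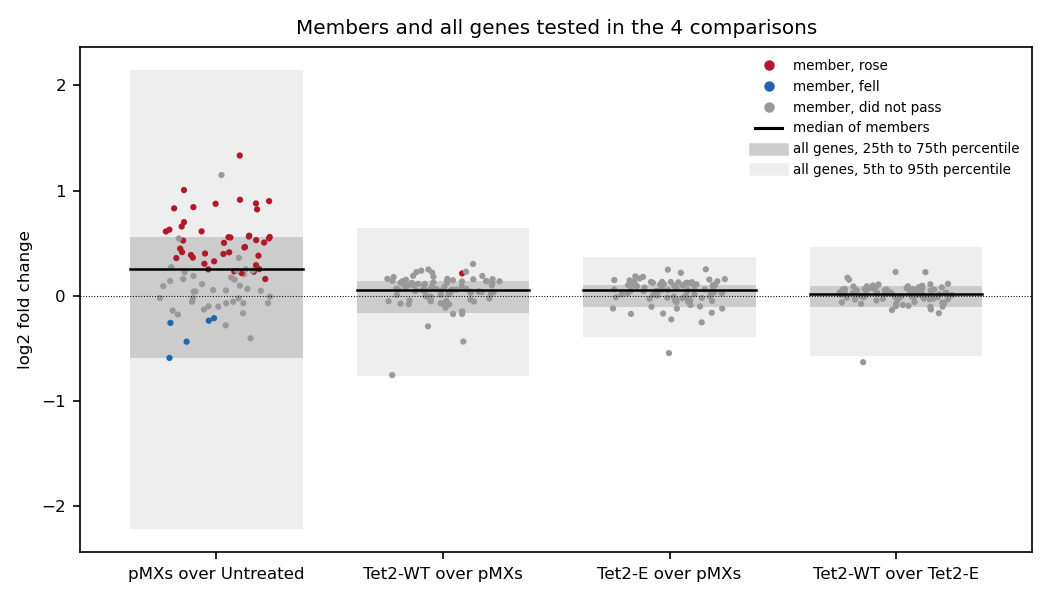
Log2 fold change (vertical axis) of the 89 tested members (points) in the 4 comparisons, over bands that span the 25th to 75th and the 5th to 95th percentiles of all 14607 genes tested, with a bar at the members' median. The members' median is 0.25 in pMXs over Untreated and 0.060, 0.055 and 0.021 in the 3 comparisons between day 5 groups, where Sdha is the only member called.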

How the data were processed

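RNA from the 4 groups (13 libraries) was sequenced as stranded mRNA libraries, in 40-cycle paired reads, per the labels' protocols. The authors deposited 1 table of raw counts, 1 row per gene. Per the submitters' processing notes, reads were handled with STAR 2.6.1a, SAMtools 1.7, bedtools 2.27.1, featureCounts 1.6.2, R 3.6.2 and DESeq2 1.26.0 on mm9, and which strand was counted and how shared reads were treated are not given in the sources used here. Reads shared between near-identical genes, and reads of overlapping genes on opposite strands, may therefore be misplaced. Libraries were prepared in 2 sets, and which library was in which is not given in the sources used here.

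These deposited counts went into edgeR 4.0.16 under R 4.3.3, with TMM scaling and filterByExpr (count minimum 10, total minimum 15), which left 14607 genes. A single robust quasi-likelihood model over all 13 libraries, with 1 mean for each group, gave all 4 comparisons. All p-values printed as adjusted were corrected by Benjamini-Hochberg over the genes tested in the same fit, with a threshold of 0.05. In this model these were the 14607 genes, and alternative fits that changed the libraries or the filter tested other numbers of genes. SE is the absolute log2 fold change over the square root of F. The biological coefficient of variation was 0.102, and replicates differed by more than counting error. Levels are TMM-scaled CPM, and per kilobase levels use GENCODE M21 transcripts, since no mm9 annotation was used. Nothing in the labels says whether replicates came from separate cultures, so the p-values reflect the spread among these libraries, which may be technical.

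Same-numbered day 5 libraries deviated together from their group means (8 pairs, correlations 0.12 to 0.34), so the numbers were taken to link them. Day 5 libraries of another number in the same set (1 and 2, or 100 and 250) did so about as much (8 pairs, 0.078 to 0.36), so the link may be by set rather than by number. It was not seen for Untreated (7 pairs, -0.043 to 0.17). The numbers come from the library titles. Named members were, in each comparison and complex, the largest changes that passed at 5 CPM or more, up to 3 each way, or the smallest p where none passed, with all isoform pairs, the complex II genes and Cycs. From each related list came up to 2 each way at 1 CPM or more. Further subunits named beside them were chosen after their values were seen. Members and lists were chosen with earlier results of these data known. Alternatives were DESeq2 1.42.0, other scalings and filters, the replicate number or its set as a term, and leaving out each library. Values within a set of numbers come from 1 model with a mean for each group and set, whose spread is shared over all 13 libraries, since several group and set combinations hold 1 library.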

Additional observations from a re-analysis of the deposited data

Results flagged for a closer look

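Among 85 sets of 4 Tet2-E libraries examined, 5 had a library far from the other 3 by Dixon's test, and chance alone flags about 1 in 20 such sets. Tet2-E replicate 2 was low in the summed level of all subunits and cytochrome c, at 6862 CPM where the others had 7282 to 7299 CPM. It was also low in the sum of complex V without Atp5b and Atp5a1, at 935.9 CPM where the others had 982 to 989 CPM, and in P4ha2, a collagen prolyl hydroxylase, at 77.08 CPM where the others had 91.2 to 93.4 CPM. Tet2-E replicate 250 was high in Acad9, at 153.1 CPM where the others had 145 to 146 CPM. Tet2-E replicate 100 was low in Tet2, at 580.6 CPM where the others had 1299 to 1403 CPM.

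The effects of the 2 vectors differed in 3 genes of the related lists, by the test of Tet2-WT over Tet2-E. Of 20 regulators of respiratory genes 1 rose, and of 16 hypoxia-induced genes 1 rose and 1 fell. Among all genes 2.43% rose and 2.19% fell, and no difference in shares was tested. None was called among the assembly factors or the citric acid cycle, pyruvate entry, donor and carrier, and mitochondrial ribosome genes. The log2 difference was 0.44 in Epas1, which encodes the oxygen-regulated factor HIF-2 alpha, 0.86 in Egln3 and -0.34 in P4ha2, with adjusted p-values from edgeR of 0.021, 0.0022 and 0.026. No member of the respiratory complexes differed in that test.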

How the results depend on the processing

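The count of members that rose in pMXs over Untreated (44) stayed within 1.5 times in every setting tried, at 37 to 47 without 1 library and 51 with the replicate block, and 30 of the 44 were called in all 24 settings. The count that fell (5) was 2 with the replicate block, 2 with library totals alone (an alternative chosen after seeing the data), 2 in a fit of the 2 groups compared and 1 within replicate numbers 100 and 250. Without 1 library it ran from 2 to 6, and it was 2 without pMXs replicate 2 or pMXs replicate 250. With library totals alone 6299 genes rose and 4129 fell, against 5118 and 5116. In Tet2-WT over pMXs the count that rose (1) was 0 without a filter on low counts, 0 with the replicate block and 0 within replicate numbers 1 and 2, and it was 2 in a fit of the 2 groups compared. Without 1 library it ran from 0 to 1. The gene called was not always Sdha: it was Ndufa1 without pMXs replicate 2 and Atp5c1 within numbers 100 and 250, and Ndufaf4 joined Sdha in the fit of the 2 groups compared. No member fell in Tet2-WT over pMXs, and none was called in the other 2 comparisons, in any of the settings. The replicate block also changed the call of Ndufa4l2, given with its levels. No called value turned its direction. The causes were not tested. Low counts limit Atp5g2, Atp5l, Cox4i2 and Cox7a1, whose standard errors in pMXs over Untreated were 0.22 to 0.39.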
